A study of Mus musculus with 4 samples.

Results

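POU-domain genes that could serve as SOX3 partners in neural progenitor (NP) cells were examined for SOX3 binding in their own neighbourhoods. The 8 genes Pou3f1, Pou3f2, Pou3f3, Pou3f4, Pou2f1, Pou4f1, Pou4f2 and Pou6f1 were chosen by name, as POU-domain genes other than the pluripotency factor Pou5f1, from the 22367 protein-coding genes of the GENCODE vM1 annotation. They are called the members, or the family, below, although further POU-domain genes exist. A window was drawn around each gene, made of the gene body and 100 kb to each side, and every SOX3 peak that overlapped it by at least 1 bp was taken. The peaks came from 3 biological replicates of SOX3 ChIP-seq in NP cells made from R1 mouse embryonic stem cells by 4 days of culture in N2B27 medium, precipitated with an antibody raised against human SOX3 (R&D, AF2569). All samples were untreated cells of 1 line at 1 time point, and the input sample, without SOX3 antibody, entered only as the background of the authors' peak calling. The windows held 22 of the 18816 peaks of replicate 1, 16 of the 8096 of replicate 2 and 54 of the 40543 of replicate 3. Joining peaks that overlapped gave 63 regions, of 51271 in the whole genome, and a region with a peak of every replicate is called a shared region. Peak lists hold no expression values, so neither the NP identity of the cells nor the expression of these genes could be checked here.

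POU proteins bind DNA through a POU-specific domain and a POU homeodomain, which together recognise the octamer, written here as ATGCAAAT or ATGCTAAT. SOX proteins bind short AACAAA-like words and often do so beside a partner, and octamers next to a SOX site are the best-known arrangement of SOX and POU factors on the same enhancer. Class III factors (Pou3f1, also called Oct6; Pou3f2, Brn2; Pou3f3, Brn1; Pou3f4, Brn4) are the POU proteins most widely known from neural progenitors and young neurons. Pou2f1 (Oct1) is made in most cell types, Pou4f1 (Brn3a) and Pou4f2 (Brn3b) mark sensory neurons and retinal ganglion cells, and Pou6f1 (Brn5) is found in the developing and adult brain.

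The reference sequences below, from the NCBIM37 (mm9) assembly and given on the plus strand, are from the regions on which the results turn. They show the bound interval at the start of Pou2f1, the strongest region close to Pou3f1, and the region of Pou3f2 with the most replicates. The first 2 were cut to bases covered by a peak of every replicate, and the last to the central 300 bases of the region. In the Pou2f1 region replicate 2 has 2 peaks, so separate stretches were covered by every replicate. Only the central 300 bases of the stretch under the larger replicate 2 peak are printed. Capitals mark the SOX words AACAAA or AACAAT, and the forms GACAAA or GACAAT that begin with G, on either strand. No octamer is present in any of them. The first is the shared region nearest to a member's start, and the others were chosen after their values were seen.
Pou2f1 start region, chr1:167933258-167933557: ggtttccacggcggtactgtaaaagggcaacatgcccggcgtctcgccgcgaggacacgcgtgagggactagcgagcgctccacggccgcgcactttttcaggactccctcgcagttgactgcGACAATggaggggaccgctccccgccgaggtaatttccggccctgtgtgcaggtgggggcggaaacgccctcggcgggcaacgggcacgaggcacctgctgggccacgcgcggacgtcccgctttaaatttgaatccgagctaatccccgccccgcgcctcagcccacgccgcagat
Pou3f1 downstream region, chr4:124339244-124339534: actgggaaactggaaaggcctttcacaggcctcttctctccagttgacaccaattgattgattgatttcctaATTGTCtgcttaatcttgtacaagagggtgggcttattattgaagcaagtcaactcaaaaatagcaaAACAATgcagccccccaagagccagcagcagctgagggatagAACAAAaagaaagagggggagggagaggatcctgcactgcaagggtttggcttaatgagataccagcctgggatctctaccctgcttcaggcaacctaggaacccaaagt
Pou3f2 upstream region, chr4:22422141-22422440: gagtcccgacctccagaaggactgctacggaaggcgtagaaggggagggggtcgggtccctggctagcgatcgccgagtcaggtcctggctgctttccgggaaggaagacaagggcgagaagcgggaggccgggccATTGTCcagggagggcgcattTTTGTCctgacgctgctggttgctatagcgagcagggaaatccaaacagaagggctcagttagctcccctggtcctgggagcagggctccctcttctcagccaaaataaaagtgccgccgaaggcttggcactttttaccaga

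The next pair of peaks carried the only octamer and the only composite word found in the 63 regions. They were singled out after their values were seen, and each was called in replicate 3 alone. Capitals mark an octamer in the first and, in the second, a composite word in which a SOX half-site is joined to all but the last base of an octamer, on the minus strand. The second sequence is a 300-base stretch of a 450 bp peak.
Pou4f2 octamer peak, chr8:80942832-80943072: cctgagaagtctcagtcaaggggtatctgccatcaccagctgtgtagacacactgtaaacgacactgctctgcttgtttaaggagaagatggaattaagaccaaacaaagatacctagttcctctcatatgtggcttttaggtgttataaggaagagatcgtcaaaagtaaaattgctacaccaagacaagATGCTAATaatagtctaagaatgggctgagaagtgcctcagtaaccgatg
Slc10a7 composite peak, chr8:81037075-81037374: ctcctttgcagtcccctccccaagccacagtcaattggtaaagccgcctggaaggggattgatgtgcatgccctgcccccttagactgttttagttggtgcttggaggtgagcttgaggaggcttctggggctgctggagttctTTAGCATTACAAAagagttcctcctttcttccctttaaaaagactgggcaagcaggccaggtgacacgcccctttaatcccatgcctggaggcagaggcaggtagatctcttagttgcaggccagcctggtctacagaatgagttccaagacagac

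Regions with SOX3 peaks were present in the window of every member, as they were for 97.2% of all protein-coding genes. Shared regions were present for 4 of the 8 members, against 42.2% of all protein-coding genes. Pou3f1 had 4 shared regions, Pou2f1 had 3, and Pou3f3 and Pou4f2 had 1 each. Pou3f2, Pou3f4, Pou4f1 and Pou6f1 had none. Windows with at least 3 shared regions belonged to 6.94% of all genes, and windows with at least 4 belonged to 3.17%. These shares take no account of window width or chromosome, and the window of Pou2f1 was the widest of the members. Of the 63 regions, 9 were shared (14.3%, 95% Wilson interval 7.7 to 25.0%), against 10.5% of all regions of the genome, and 9 had peaks in exactly 2 replicates. The other 45 came from a single replicate, 37 of them from replicate 3 (58.7%, 46.4 to 70.0%), which is also the share in the genome (58.7%). Replicate 1 alone gave 8 regions, and replicate 2 alone gave 0. Intervals here and below cover counting error only.

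**Figure D1:**
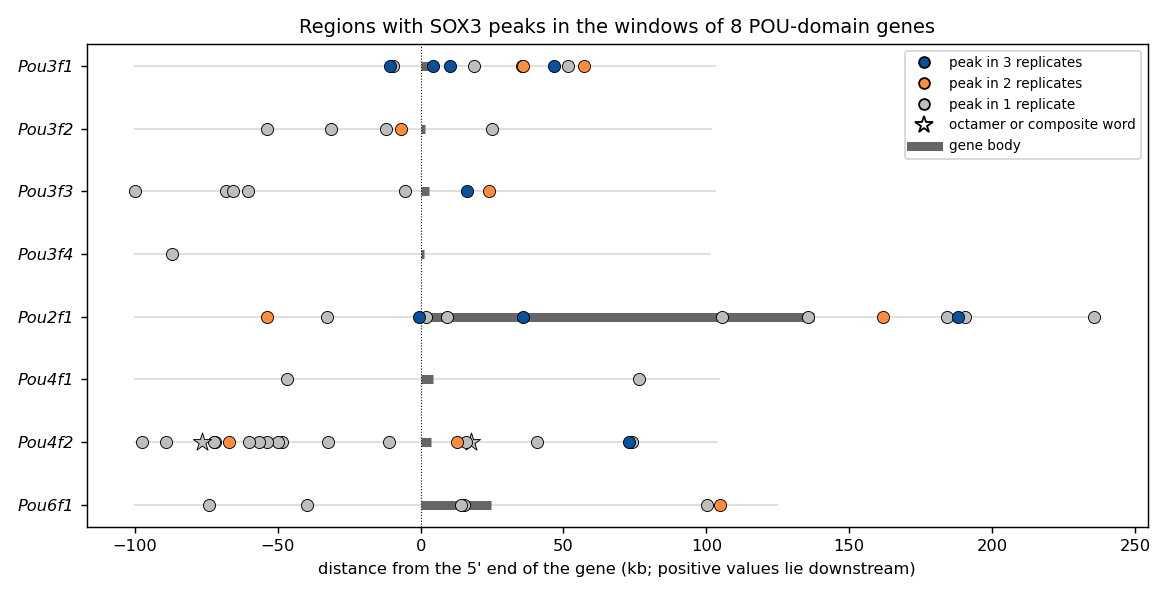
Regions with SOX3 peaks in the window of each of the 8 genes, placed by the distance of their middle from the 5′ end of the gene in kb, with upstream regions at negative values. Colour gives the number of replicates with a peak, stars mark the 2 regions with an octamer or composite word, grey bars are gene bodies, and the dark points of the 9 shared regions lie in the rows of Pou3f1, Pou3f3, Pou2f1 and Pou4f2.

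The windows held 35.4 regions and 5.06 shared regions per Mb, and the combined windows of all protein-coding genes held 22.2 and 2.45 per Mb. The spread between members was wide. Pou4f2 had 19 regions, Pou2f1 13, Pou3f1 10, Pou3f3 7, Pou6f1 6, Pou3f2 5, Pou4f1 2 and Pou3f4 only 1, where the median protein-coding gene had 6. The windows differed in width with the gene bodies, from 0.2012 Mb for Pou3f4 to 0.3375 Mb for Pou2f1. Per Mb, Pou3f1 had 49.3 regions and Pou2f1 38.5, the reverse of their order by count, and Pou4f2 remained the highest with 93.3. The density of peaks differed between the chromosomes that hold the members. Replicate 3 had 27.2 peaks per Mb on chromosome 1, which holds Pou3f3 and Pou2f1, 28.5 on chromosome 8, which holds Pou4f2, and 31.6 on chromosome 19. On the other 17 chromosomes it had 8.02 to 16.4 per Mb, with a median of 13.3. In replicate 1 chromosomes 1 and 8 had 8.15 and 10.2 peaks per Mb, against 3.28 to 9.64 on the other 17 (median 6.85). Chromosome 1 thus lay inside the range of the others in replicate 1. In replicate 2 chromosomes 1 and 8 had 4.49 and 5.02, against 1.18 to 3.88 (median 2.76). The 3 members on these chromosomes held 39 of the 63 regions, 26 of the 37 regions of replicate 3 alone and 5 of the 9 shared regions. The part of the chromosome density in these counts was not tested. Read against their own chromosome, the 19 regions of Pou4f2 were reached by 17.7% of the genes of chromosome 8, compared with 4.01% of all genes, and the 7 of Pou3f3 by 77.0% of the genes of chromosome 1, compared with 41.7% of all genes. The 13 regions of Pou2f1 were reached by 32.7% of the genes of chromosome 1, where the median was 10 regions, compared with 11.3% of all genes. The 10 regions of Pou3f1 went the other way, reached by 18.3% of the genes of chromosome 4 and 22.0% of all genes. So did the counts of Pou6f1 (46.4% of its own chromosome, 50.9% of all genes) and Pou3f4 (82.3% and 97.2%). For Pou3f2 (64.6% and 61.0%) and Pou4f1 (93.6% and 90.7%) the share was slightly higher on the own chromosome.

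**Figure D2:**
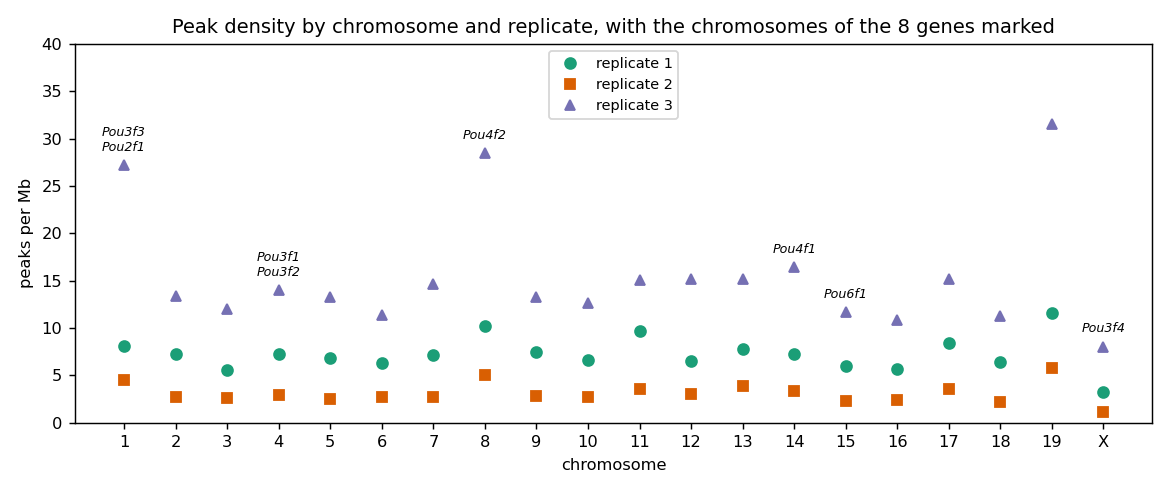
Peaks per Mb on each chromosome in replicates 1, 2 and 3, with the members written above the chromosome they lie on. Chromosomes 1, 8 and 19 stand above the others in replicate 3, with 27.2, 28.5 and 31.6 peaks per Mb, and Pou3f3, Pou2f1 and Pou4f2 lie on the first 2 of them.

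Peaks of replicates 2 and 3 often began at an identical base. Where a peak of replicate 2 overlapped one of replicate 3 in the windows, the first base was identical in 5 of 14 cases. It was identical in 0 of 12 cases for replicates 1 and 2, and in 0 of 13 for replicates 1 and 3. In the whole genome the shares were 34.5%, 0.922% and 1.63%. The lists hold no reads, so whether the libraries of replicates 2 and 3 share reads was not tested, and a shared region need not rest on 3 independent libraries. Counts of shared regions are therefore given also with each replicate left out. Regions with a peak in both remaining replicates numbered 13 without replicate 1, 12 without replicate 2 and 11 without replicate 3, in 4, 4 and 6 members respectively. The 42.2% of all genes given above needs a peak of every replicate. No share of all genes is given for this looser rule, so these member counts cannot be set against it. Without replicate 1, Pou2f1 had 5 such regions and Pou3f3 and Pou4f2 had 2 each. Pou4f2 had 2 also without replicate 2, and Pou3f2 and Pou6f1 had 1 each without replicate 3.

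Pou2f1, the ubiquitous octamer-binding factor (ENSMUSG00000026565, chromosome 1 from 167795285 to 167932809, minus strand), had the highest-scoring region of the 8 members, and it lay at the start of the gene. This region ran from 167932810 to 167933690, directly upstream of the first base of the gene, with its middle 441 bp from the nearest annotated start. The peak score, which rises by 10 for each factor of 10 in the p-value of MACS, was 525 in replicate 1, 287 in replicate 2 and 578 in replicate 3. These are the 96.7th, 91.8th and 98.6th percentiles of their own lists, so the region ranked high in every replicate. In replicate 2 the stretch was split into a peak of 249 bp with a score of 82.0 and one of 411 bp with a score of 287. A shared region within 2000 bp of a start was present for 4.79% of all protein-coding genes and, among the 8 members, for Pou2f1 alone. With a reciprocal overlap of 50% required between the peaks of each pair of replicates, this region was no longer shared, since its lowest such overlap was 47.2%, and no member then had a shared region at its start. The 300 bases printed above, from the stretch under the larger of these replicate 2 peaks, had a GC content of 66.7% and 37 CG dinucleotides. The region held 1 AACAAA and 1 GACAAT word, and only the second lies within the printed stretch. The AACAAA, at 167933041 to 167933046, lay under the smaller replicate 2 peak and was also covered by every replicate. A weaker peak, of replicate 3 alone, lay inside the gene, from 167930766 to 167930937, with a score of 51.4, near the lowest score a list can hold (50). Its middle was 1957.5 bp downstream of the first base of the gene and 1889 bp downstream of the nearest annotated start.

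A second shared region of Pou2f1 lay inside the gene, in an intron. Replicate 1 gave it a score of 169, replicate 2 of 187 and replicate 3 of 284 (81.2nd, 84.2nd and 96.04th percentiles), so that it too ranked high in every list. The third shared region, from 167744249 to 167744984, lay beyond the 3′ end of Pou2f1 in an intron of Cd247, which encodes a chain of the T cell receptor complex, and the closest start was that of Cd247, 25721 bp away. Replicate 1 scored it 322, replicate 2 scored it 84.2 and replicate 3 scored it 77.6, so it ranked in the 92.5th percentile of replicate 1 but the 51.7th and 68.4th of the others. Of the remaining 10 regions of the window, 2 had peaks in replicates 2 and 3, and 8 in replicate 3 alone.

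Pou3f1, the class III factor known from neural induction and from the Schwann cells that make myelin (ENSMUSG00000078236, chromosome 4 from 124334896 to 124337899, plus strand), had 4 shared regions against 3 for Pou2f1, an order that depended on the settings. With a score of at least 100 both had 2, with windows of 200 kb or with stretches covered by all 3 replicates both had 4, and without replicate 1 Pou2f1 had 5 and Pou3f1 had 4. Pou3f1 had more in these cases, with 6 against 3 without replicate 2, 4 against 3 without replicate 3, 4 against 2 with equal lists, 4 against 2 with windows of 50 kb, and 3 against 1 with the reciprocal overlap. They were spread over both sides of the gene, 10845 bp upstream and 4485, 10238 and 46719 bp downstream of its only annotated start. The downstream region from 124339188 to 124339574 was the closest to the gene, in the intergenic sequence behind its 3′ end. Its scores were 288, 133 and 220 in replicates 1, 2 and 3 (91.2nd, 74.2nd and 94.3rd percentiles). The bases printed above held 3 SOX words, a GACAAT on the minus strand and an AACAAT and an AACAAA on the plus strand, and no other shared region of the family held as many. The region from 124344949 to 124345319, farther downstream, was weaker, with scores of 132, 55.6 and 116 (73.6th, 17.1st and 85.5th percentiles). It held 2 SOX words, and neither lay in the 133 bp covered by all 3 replicates. The upstream region, from 124323918 to 124324184, had scores of 100.1, 77.7 and 133 (62.8th, 46.2nd and 88.4th percentiles) and held no SOX word.

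The fourth shared region of the Pou3f1 window, from 124381418 to 124381812, lay in an intron of Fhl3, a gene for a LIM-domain protein, and 3651 bp from its start. Its scores were 315, 125 and 164 (92.3rd, 72.0th and 91.4th percentiles), similar to those of the region closest to Pou3f1. It held a single AACAAA word. For the other 3 shared regions Pou3f1 was the gene with the closest start. The 6 further regions of the window had peaks in replicates 1 and 3 (2 regions), replicate 1 alone (2) or replicate 3 alone (2). None of the shared regions of Pou3f1 was repeated in the genome, in that every 50-base sequence within them occurred once.

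Pou3f3, a class III factor of the forebrain and kidney (ENSMUSG00000045515, chromosome 1 from 42753991 to 42757052, plus strand), had 1 shared region, 16369 bp downstream of its start, from 42770188 to 42770532. Replicate 1 scored it 55.5, replicate 2 scored it 89.8 and replicate 3 scored it 177. The region was therefore near the bottom of the first list (19.03rd percentile), in the middle of the second (55.6th) and near the top of the third (92.2nd). It held no SOX word. A neighbouring region, 23952 bp downstream, had peaks in replicates 2 and 3. The other 5 regions, all upstream, came from replicate 3 alone, and the closest of them lay 5441 bp from the start with a score of 56.6.

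Pou3f2, a partner of SOX proteins at neural enhancers (ENSMUSG00000052621, chromosome 4 from 22413791 to 22415480, minus strand), had no shared region. It was the gene with the closest start for all 5 regions of its window, each of them intergenic. The region with the most replicates ran from 22422139 to 22422443, 6811 bp upstream, and was singled out after its values were seen. It had a score of 167 in replicate 1 (80.8th percentile) and 51.9 in replicate 2 (6.24th percentile), and no peak in replicate 3. The central 300 bases, printed above, had 16 CG dinucleotides, an ATTGTC and a TTTGTC, which are the words GACAAT and GACAAA read on the minus strand. The other 4 regions were called in 1 replicate each, and in 2 of them most of the 50-base sequences occurred more than once in the genome.

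Pou3f4, a class III factor needed for the inner ear (ENSMUSG00000056854, chromosome X from 108009729 to 108010910, plus strand), had the fewest regions. Its only peak, of replicate 3, lay 87128 bp upstream, was 90 bp wide and had a score of 122 (86.6th percentile). All of its 50-base sequences occurred in more than 1 place of the genome. Chromosome X had the fewest peaks per Mb in each replicate, with 3.28, 1.18 and 8.02.

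Of the class IV genes, Pou4f1 (ENSMUSG00000048349, chromosome 14 from 104862737 to 104867216, minus strand), a gene of sensory neurons, had 2 regions, both of replicate 3 alone, with scores of 63.7 and 71.6. They lay 73957 bp downstream and 46698 bp upstream of its closest start, the second in an intron of a neighbouring gene. Pou4f2, a gene of retinal ganglion cells (ENSMUSG00000031688, chromosome 8 from 80956908 to 80960551, minus strand), had 19 regions, but only 1 was shared and 13 came from replicate 3 alone. The shared region ran from 80887317 to 80887610, 73088 bp downstream, in an intron of Ttc29, whose start was closer. Its scores were 99.5, 58.7 and 73.04 in replicates 1, 2 and 3 (62.4th, 23.4th and 64.2nd percentiles), and for no other shared region of the family was the highest of the 3 percentiles this low. It held an AACAAT word. This was also the shared region farthest from a member's gene body, at 69297 bp. The nearest one beyond the 100 kb limit of any member was another of Pou4f2, at 119973 bp.

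Pou6f1, a class VI gene of the brain (ENSMUSG00000009739, chromosome 15 from 100405750 to 100430415, minus strand), had 6 regions, none of them shared. A pair lay in its introns, both of replicate 1 alone, with scores of 160 and 53.7. The first of these was 713 bp wide, and 85.4% of its 50-base sequences occurred more than once in the genome. The region with peaks in replicates 1 and 2 lay at the start of a neighbouring gene, 99769 bp from that of Pou6f1.

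**Figure D3:**
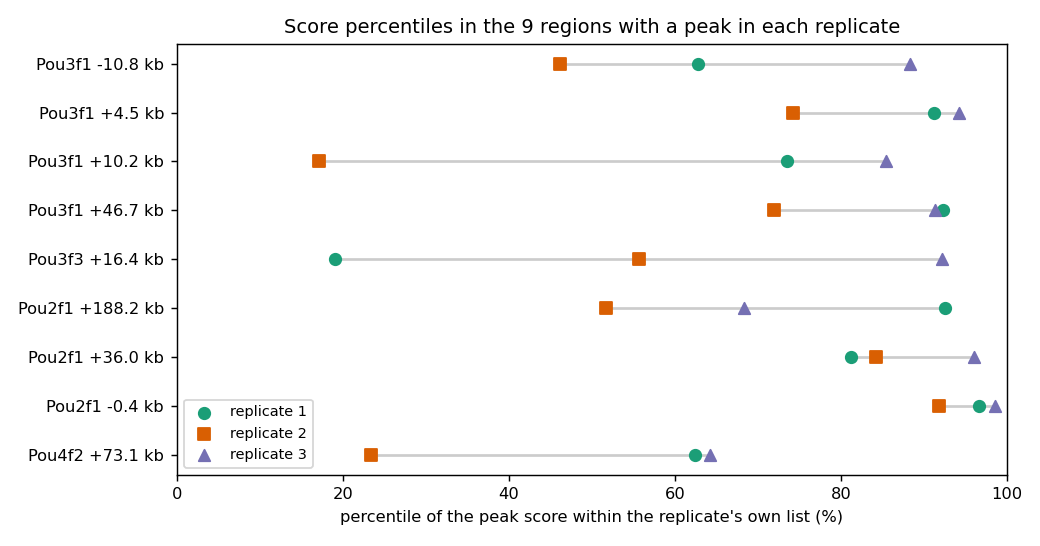
Percentile of the peak score within its own replicate's list, in percent, for each of the 9 shared regions, named by gene and distance from the gene's 5′ end in kb. The Pou2f1 start region is above the 90th percentile in all 3 replicates, and the Pou3f3 region spans the 19.03rd to the 92.2nd.

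Across the 9 shared regions the median score was 169 in replicate 1 (range 55.5 to 525), 89.8 in replicate 2 (55.6 to 287) and 164 in replicate 3 (73.04 to 578). The median percentiles were 81.2, 55.6 and 91.4. The 37 regions of replicate 3 alone had scores from 50.6 to 148 with a median of 58.8, or the 38.4th percentile of the list. The groups overlapped in replicate 3, since 4 of the 9 shared regions scored below the highest of these. With a score of at least 100 required of every peak, 4 shared regions remained, in 2 members, Pou3f1 and Pou2f1.

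By place, 4 of the 9 shared regions were intergenic, 4 lay in introns and 1 at a start. Of all 63 regions, 37 were intergenic, 17 intronic, 1 exonic and 8 within 2000 bp of the start of a protein-coding gene, but only 2 of those 8 starts were those of a member, both of Pou2f1. The member was the gene with the closest start for 27 of the 63 regions and for 6 of the 9 shared ones. More than 50% of the 50-base sequences occurred in several places for 8 of the 63 regions and for 0 of the shared ones, where the highest share was 11.4%. For place, closest start and repeated sequence no share over all regions of the genome is given. These counts therefore describe the windows only.

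**Figure D4:**
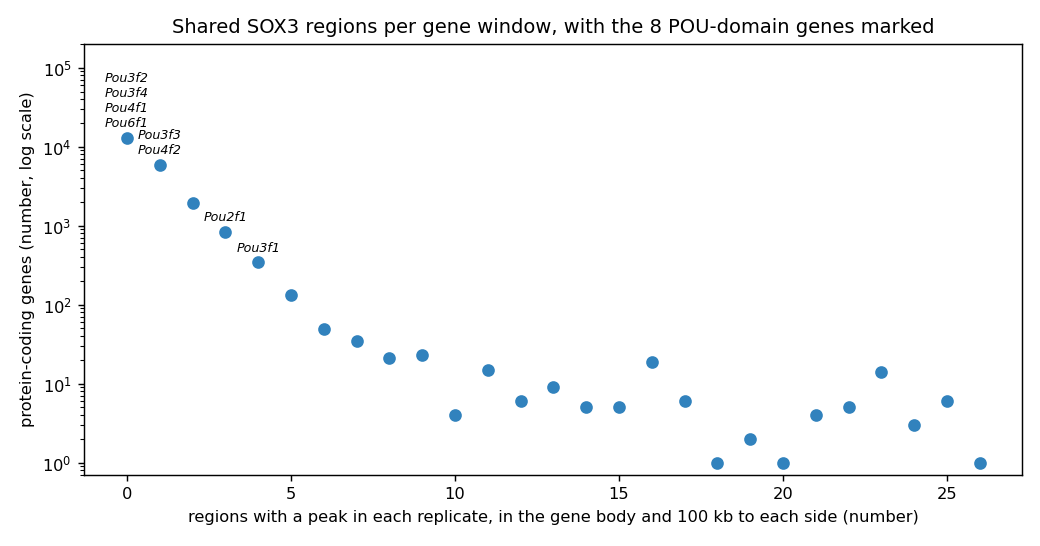
Number of protein-coding genes (log scale) against the number of shared regions in the gene body and 100 kb to each side, with the 8 members written above their count. Most genes have 0 or 1, Pou3f2, Pou3f4, Pou4f1 and Pou6f1 have 0, and Pou3f1 with 4 is among the 3.17% of genes with at least 4. The counts take no account of window width or chromosome.

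An octamer was present in 0 of the 9 shared regions (95% Wilson interval 0 to 29.9%, where the limit of 3 counts in 9 is 33.3%). In the genome, 11.6% of shared regions held one (10.7 to 12.5%), against 4.79% of equally wide windows placed 2000 bp to the left and right (4.40 to 5.21%). With 9 regions, a share of the size seen in the genome cannot be told from 0. Among all 63 regions of the family, 1 held an octamer (1.59%, 0.281 to 8.46%), against 3 of 126 flanking windows (2.38%, 0.813 to 6.77%) and 4.10% of all regions of the genome. Among the 37 regions of replicate 3 alone, 1 held an octamer (2.70%), against 2.84% of all such regions. At the level of single peaks, the octamer was present in 0 of 22 peaks of replicate 1, 0 of 16 of replicate 2 and 1 of 54 of replicate 3. A member with an octamer in any region of its window was thus 1 of 8, compared with 19.1% of all genes, and 0 of 8 had one in a shared region, compared with 6.76%.

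The region with the octamer belonged to Pou4f2. It ran from 80942832 to 80943072 on chromosome 8, 17599 bp downstream of the start, with a score of 81.9 in replicate 3 (71.8th percentile) and no peak in the other replicates. The octamer ATGCTAAT lay at 80943023 to 80943030, 74.5 bp from the middle of the region, and an AACAAA word at 80942935 to 80942940. The composite word, TTTGTAATGCTAA, lay at 81037219 to 81037231 in the same window, in an intron of Slc10a7, which had the closest start at 3709 bp. That peak had a score of 148 (89.9th percentile), the highest among the 37 regions of replicate 3 alone. The composite word was present in 1 of 63 regions of the family (1.59%) and in 1.61% of all regions of the genome. Among shared regions it was present in 0 of 9, against 6.98% of those in the genome (6.33 to 7.70%). These shares are for 1 exact pattern. The paper, by a de novo motif search on its own peak set, reports a SOX/POU motif in a larger share of peaks.

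Octamers were not missing from the neighbourhoods themselves. The 8 windows, 1779253 bp in all, held 215 exact octamers and 29 composite words, from 15 octamers each for Pou3f1 and Pou6f1 to 46 for Pou2f1. Regions with peaks covered 0.919% of these bases and contained 1 of the 215 octamers. From the middle of a shared region the closest octamer lay at distances between 1233 bp, for the Pou2f1 start region, and 33002 bp, for the Pou3f1 region 10238 bp downstream. The best match inside the shared regions had 1 mismatch in 4 regions and 2 in the other 5. Those with 1 mismatch were ATGCTATT upstream of Pou3f1, ATGGAAAT in the Pou3f3 region, and ATTCAAAT in both the Pou2f1 start region and the Cd247 region. Words within 1 mismatch of ATGCAAAT were common, in 33.3% of the shared regions of the family (12.1 to 64.6%), 38.9% of all shared regions and 37.9% of their flanks. The flanks of the family's shared regions held one in 8 of 18 cases (44.4%, 24.6 to 66.3%). Over all 63 regions the share was 20.6% (12.5 to 32.2%), against 34.1% of the flanks (26.4 to 42.8%), with intervals that overlap.

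A SOX word, by contrast, was present in 7 of the 9 shared regions, or 77.8% (45.3 to 93.7%), and in 7 of 18 flanking windows, or 38.9% (20.3 to 61.4%). These intervals overlap. In the genome, 78.2% of shared regions held one, against 68.3% of their flanks (67.4 to 69.2%). The regions without a SOX word were the one upstream of Pou3f1 and the one of Pou3f3. In 5 of the 7 regions the word closest to the middle lay within 50 bp of it, and in those at the start of Pou2f1 and in Cd247 it lay 134 and 148 bp away. Among all 63 regions, 33 held a SOX word (52.4%, 40.3 to 64.2%), and 63 of 126 flanking windows did (41.4 to 58.6%). In the genome the shares were 49.2% of all regions and 48.2% of their flanks, so the share of the family was near the background.

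**Figure D5:**
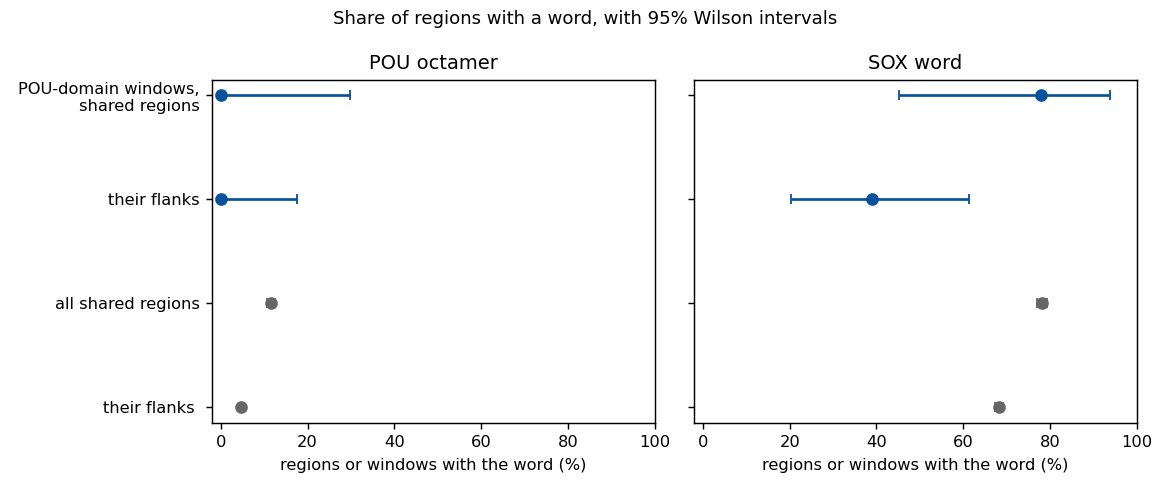
Share of regions or flanking windows, in percent, that hold an exact octamer (left) or SOX word (right) on either strand, with 95% Wilson intervals, for the 9 shared regions of the POU-domain windows and for all shared regions of the genome. The octamer is at 0% in the family and at 11.6% in the genome, inside the wide interval of the family, and the SOX word is at 77.8% and 78.2%.

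Some other POU-domain genes were counted for comparison. Pou5f1, the pluripotency factor Oct4, had 12 regions in its window, 3 of them shared, and 2 of these 3 lay within 2000 bp of an annotated start of the gene. Pou4f3 had 8, of which 1 was shared. Pou2f2 had 7 regions, Pou1f1 3 and Pou2f3 2, and none of these was shared. An octamer was present in 1 region of Pou4f3, which was not shared, and in no region of the other genes named here.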

How the data were processed

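The authors aligned 50 bp single-end reads to mm9 with Bowtie (version 1.0.0 in the submitters' processing notes) and ran MACS on every replicate separately, against the input, keeping peaks with a p-value of at most 1e-05. They deposited 1 list per replicate with the position and a score of each peak. The deposited score was taken as the negative log10 of that p-value times 10, since its minimum in every list, 50, is what the limit of 1e-05 gives. It is not normalized between replicates, so scores were compared as percentiles within a list. The lists give no read counts, the depth is unknown, and peaks were not called again.

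The members and word lists were chosen with earlier results of these data known. Genes were those of GENCODE vM1 on NCBIM37, the assembly of mm9, and no peak ended past its chromosome. Regions named in the text are the shared ones, those within 2000 bp of a member's start, and a few others, which were chosen after their values were seen. Neighbouring genes are named only where they hold or lie closest to such a region. Words were searched exactly on both strands. A listed gene and 1 sequence are not reported here. No significance test was run, because the lists allow no model across replicates and the genes are not replicates. Alternatives were another score limit, equal list lengths, other overlap and window rules, a mismatch, and leaving out each replicate. The procedure was tested on simulated data. The tools were pysam 0.24.0, scipy 1.17.1, matplotlib 3.10.9, numpy 2.4.6 and numba 0.67.0, run in Python 3.11.15.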

Additional observations from a re-analysis of the deposited data

How the results depend on the processing

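The number of regions, 63, became 22 with a score of at least 100, 25 with the 8096 highest-scoring peaks of each list, 37 with windows of 50 kb and 115 with windows of 200 kb. Shared regions, 9 in all, numbered 4 with a score of at least 100 and 15 with windows of 200 kb. Members with a shared region, 4 of 8, numbered 2 with a score of at least 100 and 2 with equal lists (Pou3f1 and Pou2f1 in both cases). Leaving out 1 replicate gave 11 to 13 shared regions in 4 to 6 members, the 6 without replicate 3, where Pou3f2 and Pou6f1 had 1 each. The share of all genes with a shared region is not given under these alternatives, so the member counts have no background beside them. Shared regions with an octamer rose from 0 to 2 with windows of 200 kb and to 3, or 33.3%, with 1 mismatch to ATGCAAAT, and stayed at 0 under each other alternative tried. Requiring a reciprocal overlap of 50% gave 6 shared regions, in 4 members, and left Pou2f1 with 1, in its intron, without the region at its start. Of 80 counts of shared regions per member under the alternatives, 57 equalled the main count, 12 were above it and 11 below. The causes of these changes were not tested, beyond the fewer peaks, wider windows or looser word that each alternative uses. With 9 shared regions, every share given for them has a wide interval.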
